A study of Mus musculus with 10 samples.

Results

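The genes described here encode proteins that keep genomic imprints and silence repeats: Zfp57, Zfp445, Trim28, Setdb1, Hells, Smchd1 and Morc1, 7 in all. They were chosen by name. Their cytosines were all CpG cytosines of the deposited table that lay between 2000 bp before and 2000 bp after the gene's RefSeq span, which came to 516 of 2391795. Each gene was read in 3 regions. The start region reached 2000 bp to either side of the gene's first base on its strand, the end region did so around its last base, and the body was the rest of the span. A region with fewer than 3 cytosines was left as unmeasured.

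Mouse embryos of embryonic day 7.5, when the germ layers form, were profiled by reduced representation bisulfite sequencing (RRBS), which reads CpG-rich fragments after unmethylated cytosines have been converted. The study set 5 embryos labelled control against 5 labelled arsenic, all labelled as a second experiment and each prepared on its own. These labels do not say whether the embryos themselves or an earlier generation met the arsenic. The sources used here do not give the dose and timing of arsenic, the strain or the sex. The table numbers its libraries 1 to 10, which matches no embryo's label, so no library was tied to a group and no comparison of control with arsenic embryos was made. Values below describe the 10 libraries together and carry no test. For a level, methylated reads were divided by coverage at each cytosine, with the 10 libraries summed, and these shares were averaged over the region's cytosines. The range in brackets runs from the lowest to the highest library. Positions within a gene are in bp from its first base on its strand, negative before it.

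In imprint maintenance, KRAB zinc finger proteins bind DNA at imprinted control regions and at transposable elements and bring in the co-repressor TRIM28. TRIM28 in turn brings the histone H3 lysine 9 methyltransferase SETDB1, and DNA methylation is held in place there while the rest of the embryonic genome is reprogrammed. HELLS, SMCHD1 and MORC1 act on chromatin without belonging to that complex. The methylation of these genes' own sequences, and not that of their targets, is what follows.

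The upstream promoter bases of a few members are shown because they hold, or lack, the cytosines behind the levels below. Each run is the 250 bases before a RefSeq start of build GRCm38.p6, 5′ to 3′ on the gene's strand, with capitals for the CpGs at which at least 1 cytosine was measured. RefSeq promoters were found for 6 of the 7 genes, all but Morc1.

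The Smchd1 run (chr17:71475344-71475593, minus strand) shows a CpG-dense promoter that was well covered. The Setdb1 run (chr3:95357203-95357452, minus strand) shows one with fewer CpGs. The Zfp57 run (chr17:37003416-37003665, plus strand) lies before the most downstream of 3 RefSeq starts and holds 1 measured CpG. The Hells run (chr19:38930740-38930989, plus strand) is CpG-dense and without a measured cytosine.
Smchd1: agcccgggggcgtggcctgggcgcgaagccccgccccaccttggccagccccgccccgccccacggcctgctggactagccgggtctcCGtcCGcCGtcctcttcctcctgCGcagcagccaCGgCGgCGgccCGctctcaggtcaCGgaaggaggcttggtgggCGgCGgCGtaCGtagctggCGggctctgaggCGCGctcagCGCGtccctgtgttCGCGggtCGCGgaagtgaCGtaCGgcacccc
Setdb1: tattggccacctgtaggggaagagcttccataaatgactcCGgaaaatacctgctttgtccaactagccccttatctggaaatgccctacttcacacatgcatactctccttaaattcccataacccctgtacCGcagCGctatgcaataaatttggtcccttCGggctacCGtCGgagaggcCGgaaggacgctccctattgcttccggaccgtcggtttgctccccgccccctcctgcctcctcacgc
Zfp57: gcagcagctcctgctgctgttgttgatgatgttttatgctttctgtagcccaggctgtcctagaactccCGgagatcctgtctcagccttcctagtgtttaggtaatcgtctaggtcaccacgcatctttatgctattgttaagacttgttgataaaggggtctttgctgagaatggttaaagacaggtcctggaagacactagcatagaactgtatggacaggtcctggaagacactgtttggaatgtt
Hells: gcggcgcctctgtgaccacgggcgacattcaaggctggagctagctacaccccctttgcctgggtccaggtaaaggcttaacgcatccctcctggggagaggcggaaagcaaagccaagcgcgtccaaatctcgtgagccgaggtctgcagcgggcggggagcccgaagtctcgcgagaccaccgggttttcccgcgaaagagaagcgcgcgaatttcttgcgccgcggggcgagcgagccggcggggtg

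Of these 250 bases, 24 of 33 CpGs of Smchd1, 7 of 13 of Setdb1, 1 of 3 of Zfp57 and 0 of 28 of Hells were measured. The windows of 300 bases, which add the first 50 bases of the transcript, held 40 CpGs in Smchd1, 34 in Hells, 23 in Trim28, 15 in Setdb1 and 10 at the RefSeq promoter of Zfp445, and 6, 9 and 4 at the 3 starts of Zfp57, against a median of 7 over 31396 autosomal promoter windows. None of the 23 CpGs of the Trim28 window was measured. Of all those windows, 35.7% had at least 1 measured cytosine.

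Most measured starts were low and most measured bodies high, but only Zfp445, Setdb1 and Smchd1 had both regions measured. Setdb1 and Smchd1 had a start under 20% and a body over 50%. Zfp445 had a low start, but its body as defined was at 37.4%. The start region was measured in 6 members and was under 20% methylated in 5 of them, Zfp57, Smchd1, Zfp445, Setdb1 and Trim28. Over 11489 autosomal protein-coding genes, 76.3% had a start under 20%, so the members' share was near that of genes in general. In Zfp57 and Smchd1, 2 of the 6, the start was under 5%, against 50.2% of those genes. This count depended on the window: within 1000 bp of the first base it was 4 of 5 measured members, namely Trim28, Smchd1, Zfp445 and Setdb1. The share of 50.2% is for 2000 bp, and none was computed for 1000 bp, so the 4 of 5 cannot be set against it. The members' median start level was 7.92%, against 4.94% for those genes. The body was measured in 4 members and was over 50% in 3, Setdb1, Smchd1 and Morc1, against 75.2% of 10010 genes. The members' median body level was 68.4%, and that of those genes 61.5%. The end was measured in Trim28 and Zfp57 and was over 50% in both, against 66.8% of 6700 genes. Another value near an end, at the high-coordinate end of Morc1, could not be called a start or an end because the reference used here gives no strand for this gene. Of the 516 cytosines, 276 were under 5% methylated, 169 were over 50% and 71 lay between. The same shares over all cytosines of the table are not given here. These counts, and those per gene below, therefore describe the members only and show no difference from other genes.

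**Figure D1:**
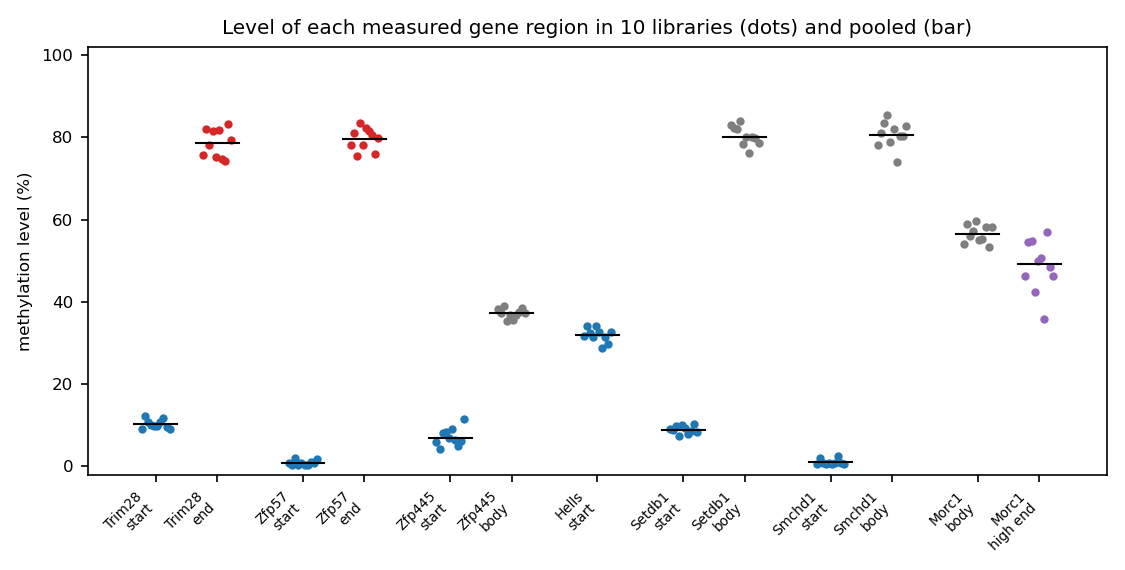
Methylation level (%) of the 13 measured regions of the 7 genes. Each dot is 1 of the 10 libraries and the bar is the level over the summed counts. Dots of starts and of bodies or ends of the same gene do not overlap, and the Morc1 regions lie near the middle of the scale.

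**Figure D2:**
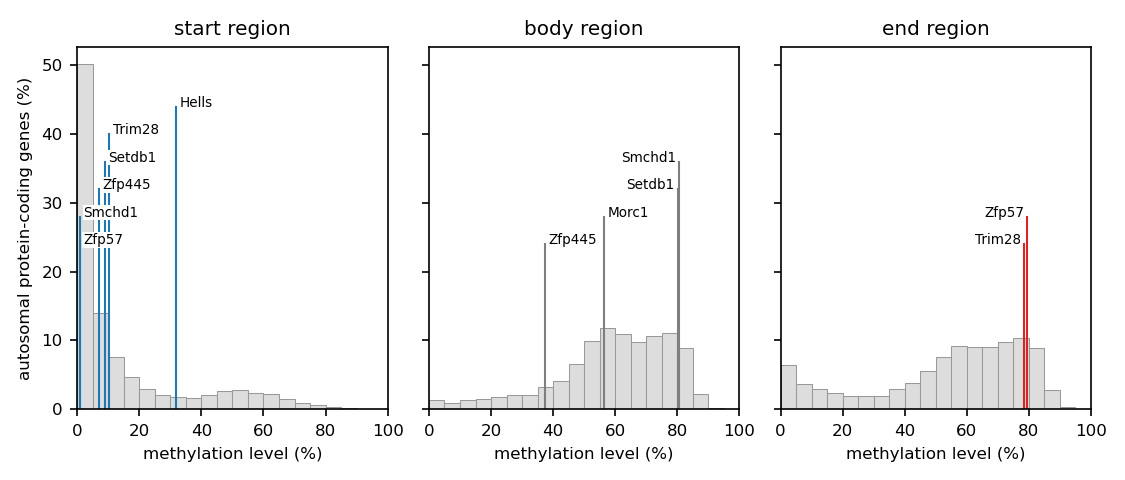
Share (%) of autosomal protein-coding genes by methylation level (%) of their start, body and end regions, in grey bars of 5 points. Coloured lines mark the measured members, whose height has no meaning. Start levels of Zfp57 and Smchd1 lie in the tallest bar, under 5%. Those of Zfp445 (6.97%), Setdb1 (8.88%) and Trim28 (10.4%) lie above that bar, and Hells lies further up at 31.9%.

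Zfp57 encodes a KRAB zinc finger protein that binds a methylated motif in imprinted control regions. The gene lies on chromosome 17 (37001163 to 37010729, plus strand) and had 39 cytosines. Its start region was 0.851% methylated over 21 cytosines (0.238% to 2.14%, library median 0.818%), with 77 of 8280 reads methylated (0.930%, Wilson 95% interval 0.745% to 1.16%). These intervals cover counting error only. They are too narrow even for that, since a read counts at every CpG it spans. Whether copies of a fragment were removed is not given, and they cannot be told apart in the counts. No library reached 3% there. With the RefSeq promoter starts in place of the first base of the span, a setting chosen after seeing the data, the level was 3.96%, and within 1000 or 500 bp of the first base nothing was measured. The end region was at 79.5% over 16 cytosines (75.6% to 83.6%, library median 80.2%), and each of its cytosines was between 67.8% and 90.1%. Every library thus had an end more than 70 points above its start. The cytosines of the end region lie between 8435 and 8625 bp from the gene's first base and within 2000 bp of Mog, a myelin gene on the opposite strand.

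The low cytosines of Zfp57 sat inside the gene, next to its second RefSeq start. They began 1634 bp after the first base, whereas RefSeq starts lie at 0, 1362 and 2503 bp. Towards the most downstream start the level rose over a short distance. The cytosine at 1971 bp was at 1.75%, that at 2078 bp at 14.8% (3.33% to 33.3% over the libraries) and that at 2323 bp at 58.4% (43.3% to 70%). The last of these is the CpG in capitals in the Zfp57 sequence above. The windows of the first and second RefSeq starts held 6 and 9 CpGs and no measured cytosine.

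Zfp445 encodes a second KRAB zinc finger protein that maintains imprints. It lies on the minus strand of chromosome 9 (122848910 to 122886851) and had 108 cytosines, the second largest number. Its start region was at 6.97% over 43 cytosines (4.23% to 11.5%, library median 6.60%), with library 10 highest and library 2 lowest. It was 4.01% when weighted by reads, 10.98% with the strands of a CpG merged, 3.46% around the RefSeq promoter and 2.22% within 1000 bp or with at least 20 reads per library. Of these, 40 lay within 100 bp of the first base and were at 2.22% (0.433% in library 1 to 6.56% in library 10), and 3 at -1896 to -1820 bp were at 70.2% (50% in library 2 to 80% in library 1). Those 3 were thinly read, with a median coverage of 13.5 reads per library. The start is shared: 42 of the gene's cytosines lie within the span of Zkscan7, another zinc finger gene, whose span overlaps the first bases of Zfp445.

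A second low stretch of Zfp445 lay within the gene. RefSeq places its promoter 20845 bp from the first base, and the 38 cytosines from 20818 to 21743 bp were at 3.46% (2.38% to 5.21%, library median 3.21%). There too the level rose with distance into the gene, with the last 3 cytosines, at 21614, 21615 and 21743 bp, at 19.5%, 21.9% and 29.1%. Further on, 17 cytosines between 31215 and 31535 bp were at 89.8% (83.9% to 93.9%). Because the promoter lies in the span, the body as defined came to 37.4% over 65 cytosines (35.3% to 38.9%). The body without 2000 bp around that promoter, a setting chosen after seeing the data, was at 85.1% over 27 cytosines (80.5% to 87.9%). The end of Zfp445 had no cytosine.

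Trim28 encodes the co-repressor that KRAB zinc finger proteins recruit. It lies on the plus strand of chromosome 7 (13024152 to 13031032) and had 62 cytosines. The start region was at 10.4% over 58 cytosines (9.10% to 12.2%, library median 9.94%), a mean of a low and a high stretch. Downstream of the start, 42 cytosines between 554 and 677 bp were at 0.492% (0.140% to 0.845%), with 70 of 13762 reads methylated, and 41 of them were under 5%. Upstream, 16 cytosines at -1498 to -1114 bp were at 36.3% (31.7% in library 1 to 42.8% in library 2), and single cytosines ran from 85.2% at the far edge to 14.5% at the near one, with the lowest at 8.56%. The ranges of the stretches over the libraries did not overlap. Within 1000 bp of the start the level was 0.492%, and read-weighted it was 7.82%. At a minimum of 20 reads per library the start of Trim28 was unmeasured.

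The 58 cytosines of that start lie within 2000 bp of Gm31649, a protein-coding gene on the opposite strand (13023708 to 13024589) that overlaps the start of Trim28. The end of Trim28 was at 78.6% over 4 cytosines (74.3% to 83.3%), all inside the neighbouring Chmp2a gene, which encodes a subunit of the membrane-cutting ESCRT-III complex. The body had no cytosine.

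**Figure D3:**
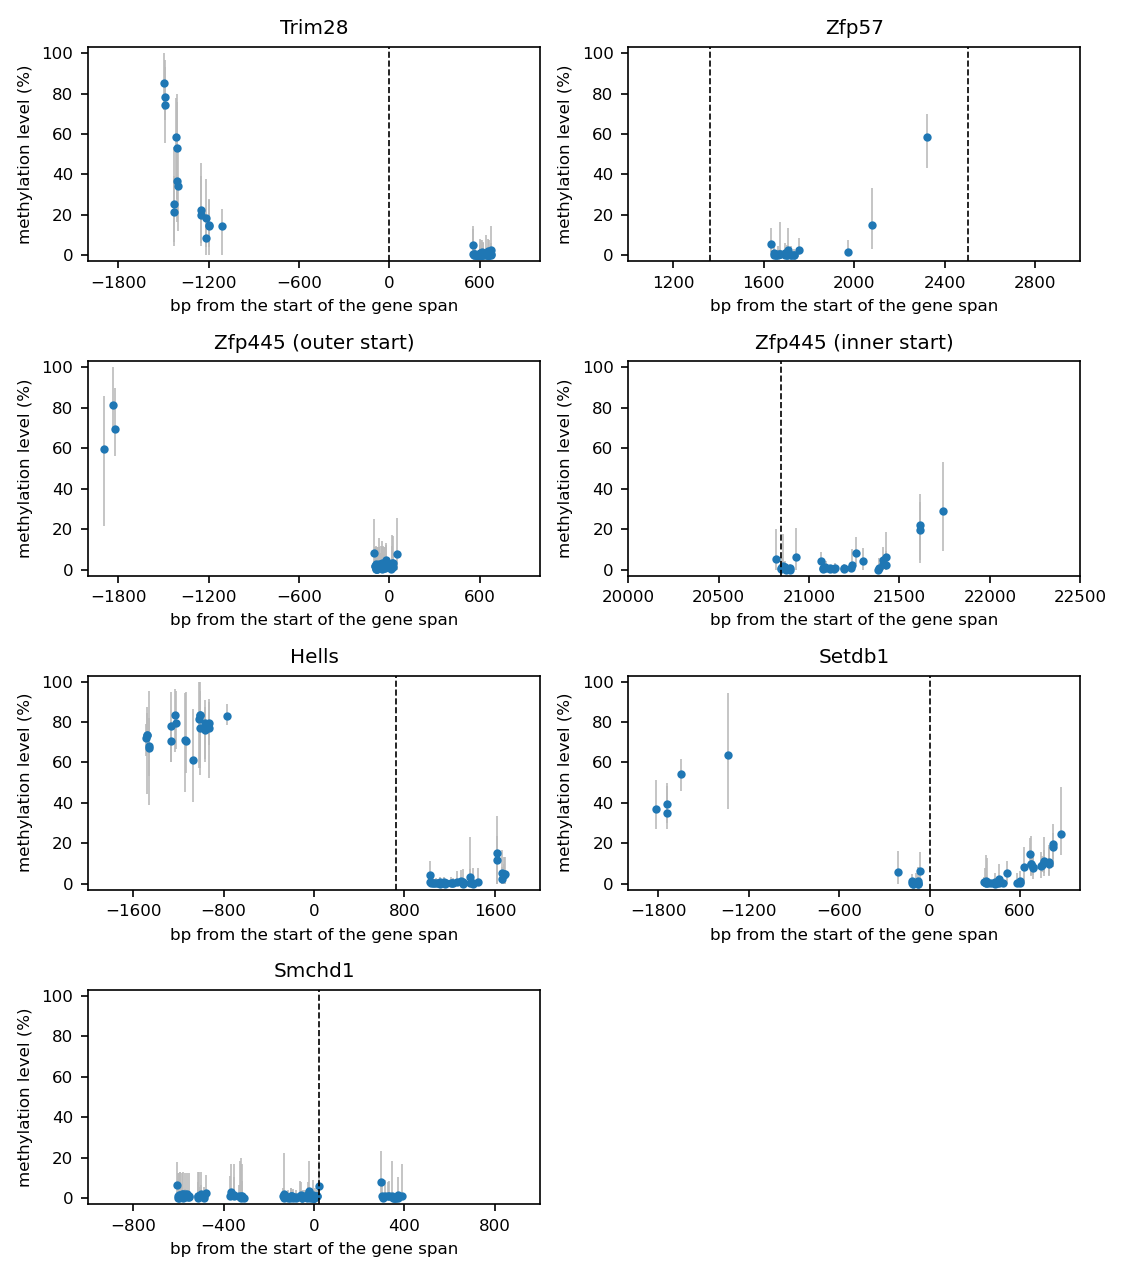
Methylation level (%) of single cytosines against distance (bp) from the first base of the gene span, along the gene's strand. Dots are levels over the summed counts, grey lines span the lowest to the highest of the 10 libraries, and dashed lines mark RefSeq promoter starts. Low stretches with higher levels before or after them are seen in Trim28, Zfp57, Zfp445, Hells and Setdb1, and Smchd1 is low throughout the measured stretch.

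Setdb1 encodes the methyltransferase that writes trimethylation of histone H3 lysine 9 at TRIM28 targets. It lies on the minus strand of chromosome 3 (95323525 to 95357202) and had 74 cytosines. The start region was at 8.88% over 50 cytosines (7.39% to 10.4%, library median 8.95%). In the promoter printed above, 12 cytosines at -210 to -66 bp were at 1.36% (0.715% to 2.64%), from 177 of 12677 reads. Into the gene, the 14 cytosines from 359 to 487 bp were as low, with none above 2.47%. Further in the level was higher, and from 666 bp on each cytosine was at 7.70% or more. The last one, at 873 bp, was the highest at 24.7% (14.2% to 47.9% over the libraries). Before the start, 4 cytosines at -1813 to -1646 bp were at 41.5% (35.7% to 46.7%), and 1 cytosine at -1336 bp was at 63.6% but ranged from 36.8% to 94.1% at a coverage of 13 or more reads.

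The body of Setdb1 was at 80.2% over 24 cytosines (76.2% in library 7 to 84.1% in library 4, library median 80.1%), and each was between 65.7% and 91.8%. Body and start were thus more than 65 points apart in every library. The end region, which overlaps the ceramide synthase gene Cers2 in part, had no cytosine. Defining the start by 500 bp moved the cytosines inside the gene beyond that distance into the body and lowered the body to 49.1%. Cytosines more than 500 bp before the first base then belonged to no region, and the start fell to 0.998%.

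Hells encodes a chromatin remodelling ATPase that is needed for the methylation of repeats. It lies on the plus strand of chromosome 19 (38930262 to 38970470) and had 54 cytosines. Its start was the only one of the 6 measured starts over 20%, at 31.9% over 52 cytosines (28.8% in library 7 to 34.2% in library 2, library median 32.0%). No cytosine carried that level. Upstream, 21 cytosines at -1486 to -772 bp were at 75.6% (70.1% to 82.2%), each between 61.2% and 83.7%. Downstream, 31 cytosines from 1022 to 1693 bp were at 2.22% (0.820% to 4.19%), from 151 methylated of 9073 reads, and 28 of them were under 5%.

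The RefSeq promoter of Hells lies between these stretches, 728 bp after the first base of the span, and the low stretch begins 294 bp after it. Around the promoter itself, the 34 CpGs of the window were unmeasured, so the place where the level changes is known only to lie within the gap. The choice of window decided the value of this gene. Within 1000 bp of the span's first base only the upstream stretch was counted, and the level was 78.9%. Within 2000 bp of the RefSeq promoter it was 27.7%, a setting chosen after seeing the data. The body held 2 cytosines, too few for a value, and the end none.

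Smchd1 encodes a noncanonical SMC protein that acts in X inactivation and at imprinted clusters. It lies on the minus strand of chromosome 17 (71344489 to 71475366), with a span of 130878 bp, and had 115 cytosines, the most of any member. Its start was low throughout: 93 cytosines at -607 to 391 bp were at 0.956% (0.531% to 2.62%, library median 0.717%), with 305 of 31878 reads methylated (Wilson 95% interval 0.856% to 1.07%). Of these, 90 were under 5% and the highest was at 7.73%. The 38 cytosines in the RefSeq promoter window, whose sequence is printed above up to the start, were at 0.761% (0% to 2.68%). A level of 0% in a library means only that none of its reads there was methylated.

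The body of Smchd1 was at 80.6% over 22 cytosines (74.1% in library 7 to 85.4% in library 4, library median 80.8%). Its 4 cytosines at 16285 to 16455 bp, inside the pseudogene Gm4707, were at 91.8%. Reads from a near-identical copy of such a sequence cannot be told apart here. Across the remaining blocks the level ran from 58.9% to 87.0%. The lowest of these blocks, 3 cytosines at 89521 to 89671 bp, held 2 cytosines at 88.2% and 80.6% and 1 at 7.92%.

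Morc1 encodes an ATPase that silences transposable elements in male germ cells. It lies on chromosome 16 (48431237 to 48630905), spans 199669 bp and had 64 cytosines, all inside the gene. None of its cytosines was under 5%: 44 were over 50% and 20 between 5 and 50%. They lay in the body or near the high-coordinate end, so no known start region was seen. The bodies of Setdb1 and Smchd1 had no cytosine under 5% either, and that of Zfp445 without its promoter had 1. The body was at 56.5% over 60 cytosines (53.4% in library 9 to 59.6% in library 5, library median 56.6%), from 13658 methylated of 25194 reads. It differed from the bodies of Setdb1, Smchd1 and Zfp445 without its promoter, whose lowest libraries, at 76.2%, 74.1% and 80.5%, were all above the highest Morc1 library. Among 10010 protein-coding genes, body levels had quartiles of 50.2% and 73.8%, so that Morc1 lay between the quartiles and Setdb1 and Smchd1 above the upper one. Morc1 is not among those genes, for want of a strand. In bulk embryo DNA, an intermediate level cannot be told apart between a mixture of cells and partial methylation within each.

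Within Morc1 the level varied from place to place. Distances are given from the low-coordinate end, since no strand was at hand. The highest block, 8 cytosines at 48449 to 48647 bp, was at 65.7% (56.6% to 74.3%), and the lowest, 4 cytosines at 175270 to 175411 bp, was at 34.7%, with its highest library at 44.1%, so that their ranges did not overlap. The low block lies inside Gm41458, a long noncoding RNA gene, as do 14 cytosines at 169728 to 170207 bp that were at 59.6% (53.0% to 64.1%). The 4 cytosines near the high-coordinate end were at 49.2% (35.9% in library 7 to 56.9% in library 8), the widest range of the 13 regions at 21.0 points. The low-coordinate end had no cytosine.

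**Figure D4:**
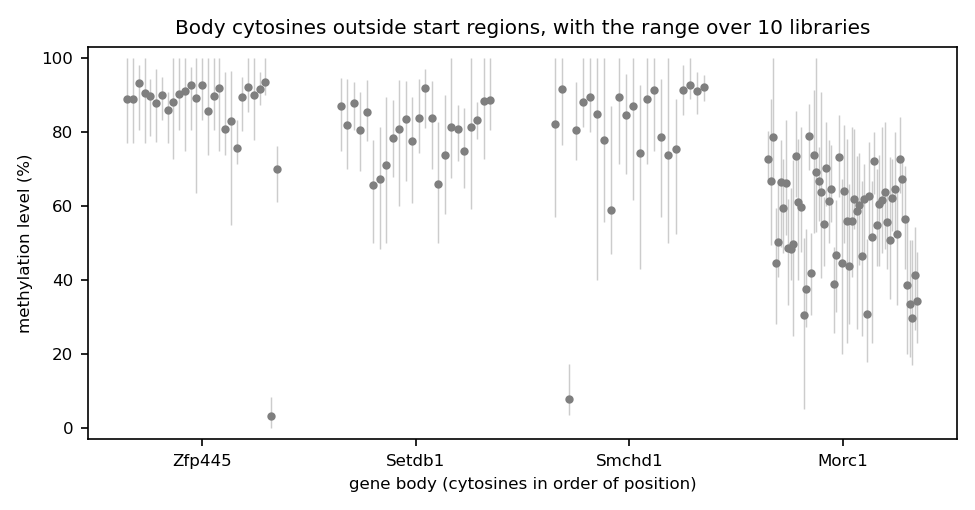
Methylation level (%) of each body cytosine of 4 members, in order of position, over the summed counts, with grey lines from the lowest to the highest of the 10 libraries. Cytosines of start regions and of the inner Zfp445 promoter are left out. Morc1 lies between 29.7% and 79.0%, below most cytosines of the other genes, and 1 cytosine each in Zfp445 and Smchd1 is under 10%.

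The members' starts and bodies varied between libraries about as much as those of other genes, without matching for level. The median range from the lowest to the highest library was 3.03 points over the 6 starts, against 3.06 points over all 11489. Over the 4 bodies it was 7.05 points, against 7.95 points over all 10010. Over the 2 ends it was 8.57 points, against 11.6 points over all 6700. The range went with level: among all starts its median was 1.81 points under 5% and 15.0 points from 50% to 80%. Library 7 was lowest in 4 of the 13 regions and library 4 highest in 3 and lowest in 3. Over all autosomal cytosines, library 1 was lowest at 40.3% and library 2 highest at 42.8%. Summed coverage was between 94583116 and 127102232 per library, and the median at the members' cytosines was between 28 and 47 reads. The members had 172 CpGs with both cytosines measured, whose levels were a median of 0.983 points apart, and over 10 points apart at 2.

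Other genes of the same machinery were listed by name, 27 in all, with Tasor also under its former symbol. A start was measured in 22 of them. It was under 20% in 19 and under 5% in 15, where the shares over autosomal protein-coding genes were 76.3% and 50.2%. The median start level was 2.76%, against 4.94% over the autosomal genes. The body was over 50% in each of the 19 with a measured body, where the autosomal share was 75.2%. Their median was 77.9%, against 61.5%. Suv39h1 and Atrx, with starts at 4.17% and 5.60%, lie on the X chromosome, which that background leaves out, and the embryos' sex was not given. The lowest starts were those of Cbx5 (0.553%), Cbx3 (0.739%), both HP1 proteins that read histone H3 lysine 9 methylation, Ctcf (0.876%), an insulator protein that binds imprinted control regions, and Mphosph8 (0.930%), a subunit of the HUSH silencing complex.

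At the other end, Dnmt1, the maintenance methyltransferase, was at 66.6% (63.4% to 69.5%) over 28 cytosines, Cbx1, the third HP1 gene, at 60.6% (51.7% to 66.3%) over only 4, Zfp809, a KRAB zinc finger gene that silences retroviruses, at 28.4% (26.1% to 30.7%) over 40 and Morc2a, a relative of Morc1, at 11.9% (10.7% to 13.4%) over 68. With the starts of the RefSeq promoter table, Dnmt1 was at 32.8% (31.2% to 34.7%) over 58 cytosines. These lie around 3 RefSeq starts and include the 28. The added cytosines were thus lower than the 28, and 32.8% is a mean of unlike stretches. Cbx5 was then at 3.30% (2.64% to 4.23%) over 25 cytosines and no longer among the 4 lowest. The counts of 19 and 15 genes stayed as they were. Lrif1, Morc2b and Tasor had fewer than 3 cytosines, and Arid4a and Dppa3 had no strand in the reference used here.

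**Figure D5:**
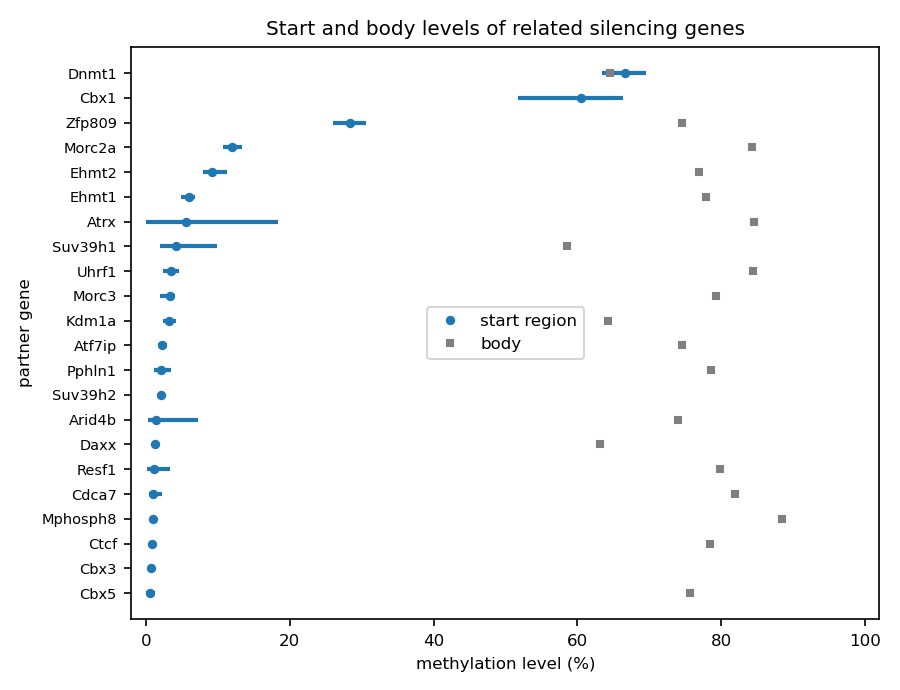
Methylation level (%) of the start region (blue dots, with a line from the lowest to the highest of the 10 libraries) and of the body (grey squares) of the 22 related silencing genes with a measured start. Starts of 19 genes are under 20%, with Zfp809, Cbx1 and Dnmt1 above.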

How the data were processed

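The deposited table holds whole-number read counts per CpG cytosine for 10 libraries, per the file headers: coverage, methylated and unmethylated reads. The submitters' processing notes name methylKit, Bismark and Trim Galore, and mm10 as the build. The sources used here do not give their versions or roles, nor how duplicate reads and overlapping mates were handled. Counts were used as deposited. Every cytosine had at least 10 reads in each library. The 30 per-library columns were tied to no sample, so the planned exact permutation test of control against arsenic was not run.

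Gene spans came from RefSeq (GRCm38.p6, the coordinates of mm10), and strands and promoter starts from the RefSeq promoter table. Of 178795 cytosines in promoter windows, 99.995% fell on a CpG of the sequence. Exons and introns were not analysed here. Of 20665 autosomal protein-coding genes, 16457 had a strand and served as background. Blocks join cytosines at most 300 bp apart. All 7 genes were to be named, with up to 4 partner genes at each extreme of the start level. Genes most like a member were to be named only for members measured in all 3 regions, and there was none. Members, lists and block sizes were chosen with earlier results of these data known. Levels were computed with Python 3.11.15, NumPy 2.4.6 and pandas 2.3.3, Wilson intervals with SciPy 1.17.1, and region assignment was tested on simulated counts of 200 genes. Alternatives were a coverage minimum of 20, read weighting, end regions of 1000 and 500 bp, merged strands, leaving out each library and, added after seeing the data, promoter-table starts.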

Additional observations from a re-analysis of the deposited data

How the results depend on the processing

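The number of starts under 20% was 5 of 6 as reported, 4 of 5 with a coverage minimum of 20 and with end regions of 1000 bp, and 3 of 3 with end regions of 500 bp, where fewer starts were measured. Read weighting, merged strands, promoter-table starts and leaving out any library gave 5 of 6. The number of starts under 5%, recomputed after seeing the data, was 2 of 6 as reported, 4 of 5 with end regions of 1000 bp, 3 of 5 with a coverage minimum of 20, 3 of 3 with 500 bp, and 3 of 6 with read weighting and with promoter-table starts. The number of bodies over 50% was 3 of 4, 3 of 6 with end regions of 1000 bp, 2 of 7 with 500 bp and 4 of 4 with promoter-table starts, and 3 of 4 in the remaining settings. Shares over all autosomal genes were computed for the main setting only, so the counts in other settings have no share beside them. No level moved by more than the SD of the libraries in the 130 values that leave out 1 library. Leaving out 1 of 10 libraries can hardly move a level that far, so these values are no measure of stability. Levels moved by more than that SD for 4 of 11 values with a coverage minimum of 20, 5 of 13 with read weighting, 4 of 11 and 3 of 7 with narrower end regions, 5 of 13 with merged strands and 4 of 13 with promoter-table starts. The body of Smchd1 rose to 89.6% with a coverage minimum of 20. The high-coordinate end of Morc1 went from 49.2% to 50.7% without library 7 and to 53.3% with merged strands. No paired analysis was possible because the columns carry no replicate number of the labels. Depth limits single cytosines, some of which had 10 reads in a library.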

Other observations

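Among body cytosines of the members outside start regions, 2 were under 10% methylated while their neighbours were high. In Smchd1, the cytosine at 89671 bp from the first base was at 7.92% (3.45% to 17.4% over the libraries), and the one at 89551 bp was at 80.6%. In Zfp445, the cytosine at 8258 bp was at 3.35% (0% to 8.47%), and the one at 8108 bp was at 69.9%. Both were low in each of the 10 libraries. Whether the genome of these embryos has a CpG at either place was not tested.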
